A study of Mus musculus with 24 samples.

Results

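IQGAP proteins are large scaffolds that tie the actin cytoskeleton to signalling. Each member carries an actin-binding calponin homology domain, IQ motifs that bind calmodulin, and a domain related to the GTPase-activating proteins of Ras that binds the active forms of Cdc42 and Rac1 without promoting GTP hydrolysis. Iqgap1 is the broadly expressed member and takes part in macrophage migration and phagocytosis, Iqgap2 is best known from liver, and Iqgap3 is best known from dividing cells. The 3 mouse genes were described here through the open chromatin peaks lying nearest to their start sites, 3 of the 21866 protein-coding genes with an annotated protein-coding start site. They were selected on their peaks by strain and treatment in these same libraries, as a named family with no threshold, so their differences are descriptions of these libraries, and the p-values below give their place in a fit over all genes and are not independent evidence.

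ATAC-seq libraries, made by cutting accessible DNA with the transposase Tn5, came from bone marrow cells of male mice at postnatal day 28, grown for 7 days into bone marrow derived macrophages. Donors were of the strain BTBR (BTBR T+ Itpr3tf/J) or C57BL6/J, with 4 biological replicates each, called animals here, and each gave 1 culture per treatment. Cultures received media, lipopolysaccharide (LPS) at 100 ng/ml for 24 h (LPSx1), or an LPS pretreatment of 4 h and later the same LPS treatment of 24 h (LPSx2). Of the 24 peak lists, the media and LPSx2 lists of C57BL6/J animal 6 held under 5000 peaks and were left out. The 22 lists kept came from 3, 4 and 3 C57BL6/J cultures in media, LPSx1 and LPSx2, and from 4 BTBR cultures in each.

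After overlapping peaks were collapsed, the kept lists held 11349 to 127242 peaks. Libraries shared a sequencing lane with 1 animal of the other strain, and every list was limited to its strongest peaks at the length of the shortest kept list of its lane, called the limited list below. Of 10 macrophage markers, 2 to 10 had a peak within 1 kb of a start site in the kept whole lists, while T and NK cell markers had 0 or 1 of 7, neutrophil markers 0 or 1 of 6, dendritic cell markers 0 to 2 of 4, stromal markers 0 to 2 of 6, erythroid markers 0 to 2 of 5 and B cell markers 0 to 4 of 5. A region open in fewer cells and a region less open in each cell cannot be told apart in these bulk libraries.

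Iqgap1 lies on chromosome 7, minus strand, at chr7:80711583-80825974 (mm10), with 3 protein-coding start sites, at 80825974 (the outermost), 80816819 and 80803416 (that of transcript Iqgap1-201). Distances are from the nearest start site, which is that of Iqgap1-201 for the intronic Iqgap1 regions and the outermost for the upstream ones. Iqgap2 lies on chromosome 13, minus strand, at chr13:95627177-95891922, is 264.7 kb long and has 1 start site. Iqgap3 lies on chromosome 3, plus strand, at chr3:88081971-88121048, with 2 start sites. In the limited lists the genes held 12, 13 and 3 separate regions, 28 of the 44159 regions of all genes and intergenic stretches. In the whole lists they held 39, 31 and 6, of which 15, 15 and 3 were found in BTBR animal 2 alone, the animal with the longest lists.

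The sequences below are the 201 bp peaks of 8 of these regions, read from the plus strand of the mm10 reference (RefSeq GRCm38.p6). The first 3 are from intron 1 of Iqgap2. The regions 42.4 kb and 42.0 kb into the gene were found in limited lists of C57BL6/J only, and the region at 22.9 kb was found in nearly every library of both strains. The fourth, from intron 2 of Iqgap2, is the farthest from the start site. Next are the upstream region of Iqgap1 that was stronger in media and the intron 4 region of Iqgap1, and last the intron 13 and intron 19 regions of Iqgap3. Capitals mark matches to the motifs of AP-1 (TGACTCA), PU.1 (GAGGAAGT), C/EBP (TTGCNNAA) and NF-kB, each searched on both strands.
Iqgap2 +42.4 kb, chr13:95849435-95849635: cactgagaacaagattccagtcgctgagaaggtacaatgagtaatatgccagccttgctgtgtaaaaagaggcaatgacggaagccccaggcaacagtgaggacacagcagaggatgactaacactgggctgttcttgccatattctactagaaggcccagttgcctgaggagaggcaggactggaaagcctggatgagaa
Iqgap2 +42.0 kb, chr13:95849760-95849960: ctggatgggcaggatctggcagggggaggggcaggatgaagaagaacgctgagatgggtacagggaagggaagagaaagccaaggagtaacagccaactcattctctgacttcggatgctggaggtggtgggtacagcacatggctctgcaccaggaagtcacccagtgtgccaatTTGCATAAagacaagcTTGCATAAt
Iqgap2 +22.9 kb, chr13:95868905-95869105: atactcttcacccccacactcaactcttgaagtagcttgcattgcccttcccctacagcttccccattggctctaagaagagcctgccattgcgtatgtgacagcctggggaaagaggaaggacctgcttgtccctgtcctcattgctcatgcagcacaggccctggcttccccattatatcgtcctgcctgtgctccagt
Iqgap2 +97.4 kb, chr13:95794419-95794619: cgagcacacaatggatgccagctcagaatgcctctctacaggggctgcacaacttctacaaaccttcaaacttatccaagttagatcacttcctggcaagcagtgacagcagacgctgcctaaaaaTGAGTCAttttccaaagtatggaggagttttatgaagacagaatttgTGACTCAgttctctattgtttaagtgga
Iqgap1 -4.62 kb, chr7:80830581-80830781: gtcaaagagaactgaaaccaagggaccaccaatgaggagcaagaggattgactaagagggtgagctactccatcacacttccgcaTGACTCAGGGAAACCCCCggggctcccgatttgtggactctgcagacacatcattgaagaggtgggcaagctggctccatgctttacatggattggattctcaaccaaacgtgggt
Iqgap1 +37.1 kb, chr7:80766254-80766454: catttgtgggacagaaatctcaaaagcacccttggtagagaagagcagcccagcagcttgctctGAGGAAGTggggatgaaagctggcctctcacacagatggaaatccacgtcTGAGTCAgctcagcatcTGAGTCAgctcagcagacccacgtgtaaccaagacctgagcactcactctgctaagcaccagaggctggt
Iqgap3 intron 13, chr3:88097841-88098041: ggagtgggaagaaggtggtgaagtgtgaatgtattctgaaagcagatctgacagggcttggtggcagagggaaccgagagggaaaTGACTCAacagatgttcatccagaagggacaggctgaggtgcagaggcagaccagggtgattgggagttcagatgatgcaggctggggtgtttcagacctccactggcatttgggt
Iqgap3 intron 19, chr3:88102796-88102996: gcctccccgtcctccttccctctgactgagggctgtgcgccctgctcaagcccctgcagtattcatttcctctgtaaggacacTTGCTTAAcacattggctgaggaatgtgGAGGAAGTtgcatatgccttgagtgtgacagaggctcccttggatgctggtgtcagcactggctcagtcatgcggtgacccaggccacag

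The strongest pattern of the family was in Iqgap2, where the limited lists of C57BL6/J macrophages under LPS held more peaks than those of BTBR macrophages. In C57BL6/J the media libraries of animals 1, 4 and 7 held 3, 6 and 2 Iqgap2 peaks. The LPSx1 libraries of animals 1, 4, 6 and 7 held 6, 8, 9 and 4, and the LPSx2 libraries of animals 1, 4 and 7 held 6, 9 and 7. In each of the 3 C57BL6/J animals with a media library, both LPS libraries held more peaks than media. BTBR animals 2, 3, 5 and 8 each held 3 peaks in media, then 1, 3, 4 and 2 with LPSx1 and 1, 3, 3 and 2 with LPSx2. No BTBR limited list had more than 4. Whole lists did not part the strains in this way, with 2 to 29 peaks in BTBR LPS libraries and 9 to 13 in C57BL6/J LPS libraries.

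**Figure D1:**
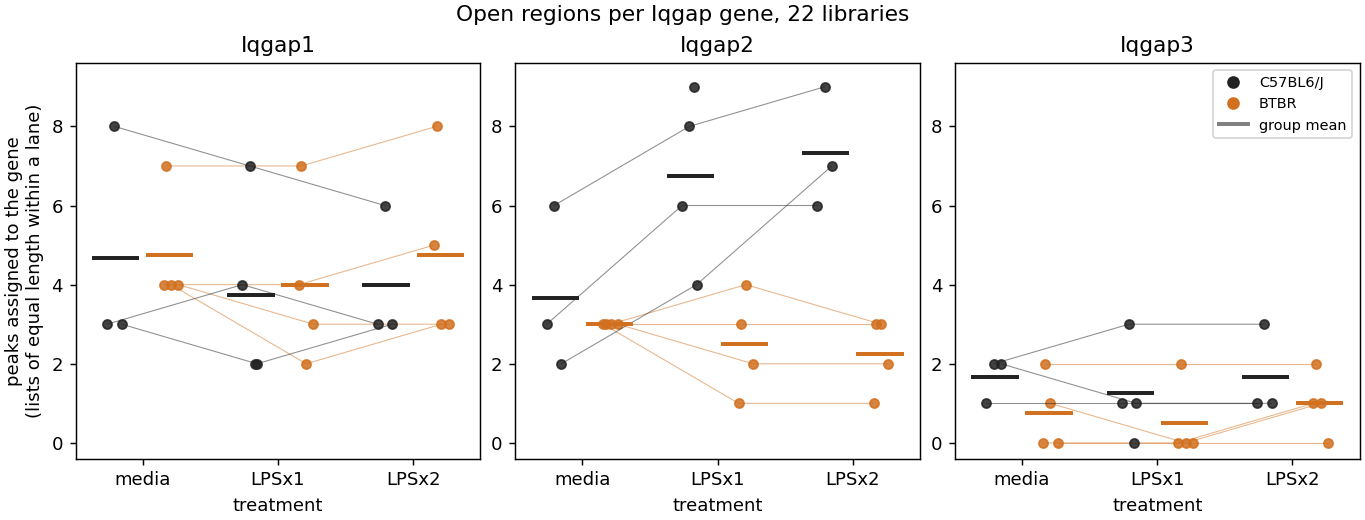
Number of peaks assigned to each gene (vertical axis) in each of 22 limited lists by treatment, with C57BL6/J in black and BTBR in orange; thin lines join the libraries of 1 animal and bars are group means. For Iqgap2 the C57BL6/J libraries lie at 6 to 9 with LPSx2 and the BTBR libraries at 1 to 3, while the strains overlap for Iqgap1 and Iqgap3.

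The group means of Iqgap2 ran from 7.33 ± 1.53 peaks (SD, n = 3) in C57BL6/J with LPSx2 and 6.75 ± 2.22 (n = 4) with LPSx1 to 3.67 ± 2.08 (n = 3) in C57BL6/J media. Below these came BTBR media at 3 ± 0 (n = 4), BTBR LPSx1 at 2.5 ± 1.29 (n = 4) and BTBR LPSx2 at 2.25 ± 0.957 (n = 4). Only the step between C57BL6/J LPSx1 and C57BL6/J media was larger than the SDs of both groups it parts. With LPSx2 all C57BL6/J libraries lay above all BTBR libraries, which was so for 0.657% of 9137 genes. With LPSx1 the strains met at 4 peaks, but the C57BL6/J library had more peaks than the BTBR library of its lane in 4 of 4 lanes, as was so for 2.11% of genes.

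Averaged over the 3 treatments, the BTBR minus C57BL6/J difference in Iqgap2 peaks was -3.58 ± 0.432 (SE, 95% interval -4.51 to -2.65, limma adjusted p = 0.000648), and BTBR was lower in 8 of 10 pairs of libraries matched by lane and treatment. That fit weighted the libraries of an animal almost as independent. Of the 3 members Iqgap2 alone passed, where 1.25% of 9137 genes did in either direction and 0.744% were lower in BTBR. By treatment, comparisons added after the data had been seen, the difference was -1.04 ± 0.765 in media (limma adjusted p = 0.986), -4.25 ± 0.696 with LPSx1 (adjusted p = 0.019) and -5.46 ± 0.765 with LPSx2 (adjusted p = 0.0183). Genes lower in BTBR made up 0.0219%, 0.263% and 0.175% of those tested in these comparisons. Within lanes 1 and 2 the mean BTBR minus C57BL6/J difference was -5.00 with LPSx1 and -5.50 with LPSx2 (2 pairs each), and within lanes 3 and 4 it was -3.50 (2 pairs) and -5.00 (1 pair).

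The strain difference changed with several settings, and the cause was not tested. With whole lists it turned to 1.28 (limma adjusted p = 0.878) and, with the short lists of animal 6 added, to 2.42 (adjusted p = 0.664). It was no longer past the threshold with lists limited within an animal (-1.17, adjusted p = 0.913), the stronger 50% of each list (-1.25, adjusted p = 0.178), a distance limit of 25 kb (-0.92, adjusted p = 0.198), no lane term (-3.54, adjusted p = 0.111), or without the 7 lists in which most peaks overlapped another (-2.76, adjusted p = 0.138). In the whole lists the 7 C57BL6/J LPS libraries held 9 to 13 Iqgap2 peaks and the 8 BTBR LPS libraries 2 to 29. The highest BTBR numbers, 29 and 28, were those of animal 2, whose LPS lists were 112429 and 127242 peaks long. The next BTBR values were 13 and 7 in animal 3 and 4, 3, 2 and 2 in animals 5 and 8.

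The response to LPS over both strains did not pass for any member, in comparisons that share their media libraries. For Iqgap2 the LPSx1 minus media difference was 1.10 ± 0.517 peaks (limma adjusted p = 0.233) and the LPSx2 minus media difference was 1.46 ± 0.531 (adjusted p = 0.109), where 5.58% and 6.22% of genes passed in either direction. With the stronger 50% of each list the Iqgap2 difference for LPSx1 was 1.69 and passed (limma adjusted p = 0.0491). LPSx2 minus LPSx1 was 0.35 ± 0.517 (adjusted p = 1), a comparison in which limma called 0 genes and 400 of 9137 had an unadjusted p under 0.05. The response of BTBR minus that of C57BL6/J was -3.21 ± 1.03 for LPSx1 (unadjusted p = 0.00801, adjusted p = 0.739) and -4.42 ± 1.06 for LPSx2 (unadjusted p = 0.00103, adjusted p = 0.637). Neither passed after adjustment, where 0.0328% and 0.0109% of genes did, so a strain difference in the Iqgap2 response was not shown.

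**Figure D2:**
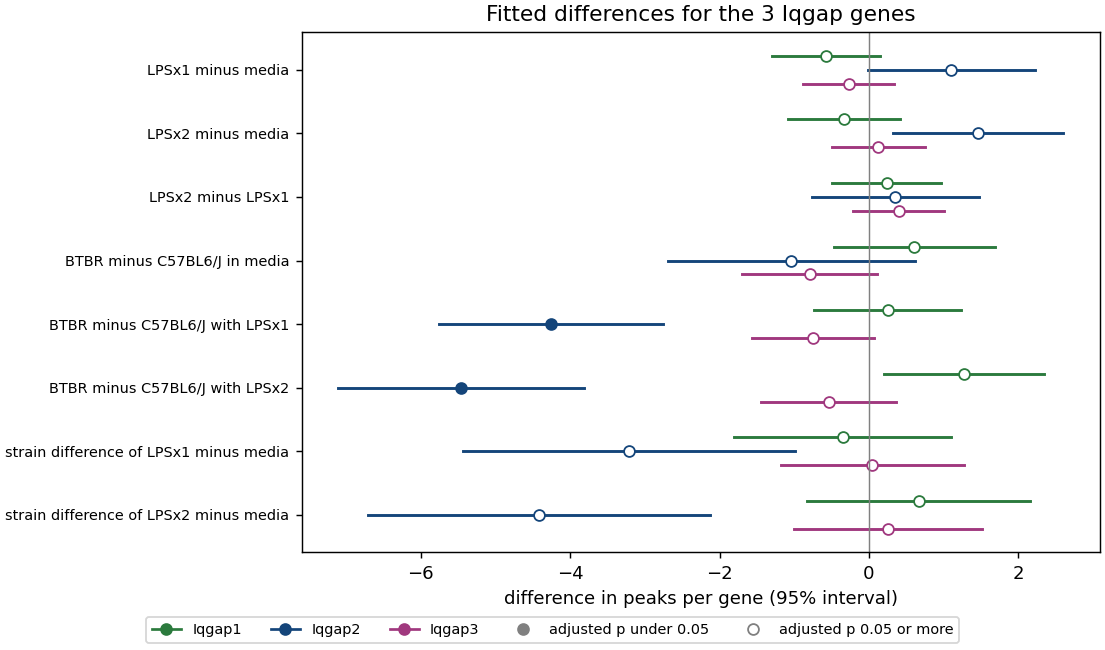
Fitted difference in peaks per gene (horizontal axis, with its 95% interval) for Iqgap1, Iqgap2 and Iqgap3 in 8 comparisons, the strain difference averaged over treatments not being drawn; filled points have a limma adjusted p under 0.05. The filled points are Iqgap2, BTBR minus C57BL6/J, at -4.25 with LPSx1 and -5.46 with LPSx2.

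The peaks behind these numbers lay mostly inside the gene. Of the 13 Iqgap2 regions of the limited lists, 8 were intronic and 5 upstream, and 6 were found in C57BL6/J only, 2 in BTBR only and 5 in both. The share of all regions found in a single strain was not computed, so these counts have no background to be read against. Of the 8 intronic regions, the limited lists of C57BL6/J animals 1, 4 and 7 in media held 1, 4 and 1. The 7 C57BL6/J LPS libraries held at least 4 and up to 8. All 12 BTBR limited lists, with and without LPS, held 1 or 2. In the whole lists the LPSx1 and LPSx2 libraries of BTBR animal 2 held 8 each, and those of animal 3 held 5 and 3. The LPS libraries of BTBR animals 5 and 8 held 1 or 2 there, and those of C57BL6/J 6 to 8.

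The pair of regions 42 kb into intron 1 separated the strains most sharply. The region at chr13:95849423-95849660 (42.4 kb) was in the limited lists of all 7 C57BL6/J LPS libraries, of 0 of 3 C57BL6/J media libraries and of 0 of 12 BTBR libraries. In the C57BL6/J LPS lists it stood between the top 14.5% and the top 89.6% of the limited list, with a median of 38.2%. Its neighbour at chr13:95849731-95850055 (42.0 kb) was in the same 7 libraries, in the media library of C57BL6/J animal 4 and in 0 of 12 BTBR libraries. It stood between the top 2.7% and the top 49.9% with LPSx1 and between the top 5.91% and the top 83.8% with LPSx2. Its median over these 8 libraries was the top 38.7%. Of all regions, 0.152% were in the limited list of every C57BL6/J LPS library and of no BTBR library. Both were held by all 4 C57BL6/J animals in most of their libraries and by no BTBR animal, as were 0.319% of the 44159 regions, while 0.165% had the opposite pattern and 0 of the 28 member regions did. In this rule most libraries of each C57BL6/J animal were LPS libraries, and animal 6 counted with its LPSx1 library alone. With whole lists, or with the stronger 50% of each list, neither region met this rule.

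In the whole lists the 42.4 kb region was also present in both LPS libraries of BTBR animal 2, at rank 33562 of 112429 (top 29.9%) and 42594 of 127242 (top 33.5%). Measured along their whole lists, the C57BL6/J LPS libraries had it between the top 8.42% and the top 32.1%. The 42.0 kb region was present in the same BTBR libraries, at the top 34.5% and 56.1%, and at the top 89.5% in the LPSx1 library of BTBR animal 3. BTBR animals 5 and 8, with the shortest LPS lists of their strain, had neither. Neither region was in any whole list of BTBR media. No BTBR library with LPS lacked the accessible region at 22.9 kb.

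**Figure D3:**
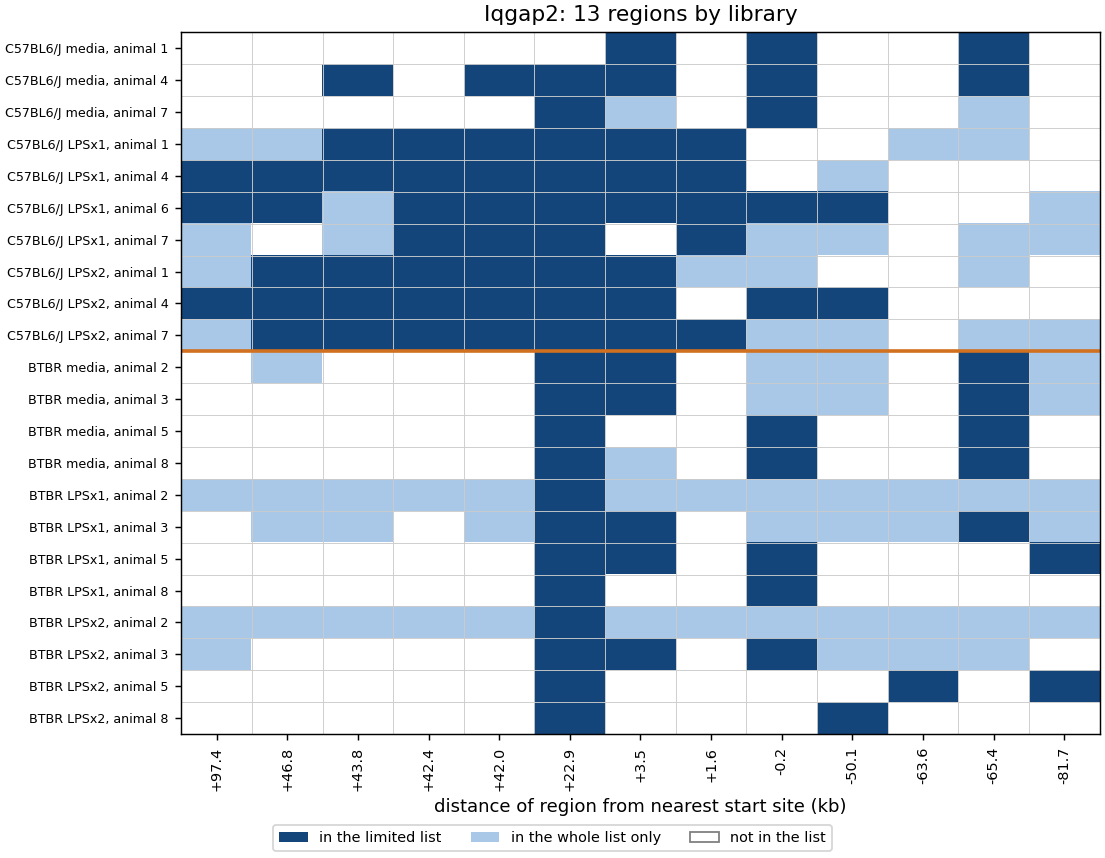
The 13 Iqgap2 regions, ordered by distance from the start site in kb (positive into the gene), against the 22 libraries; dark cells are in the limited list, light cells in the whole list only, and the orange line parts C57BL6/J (above) from BTBR. The 42.4 kb column is dark in all 7 C57BL6/J LPS libraries and in 0 of 12 BTBR libraries, with light cells in BTBR animal 2.

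The other intronic regions of Iqgap2 ran from regions in limited lists of C57BL6/J only to shared ones, and none met the strain rule that the 42 kb pair met. Regions at 97.4 kb (intron 2), 46.8 kb and 43.8 kb (intron 1) were in 3, 5 and 6 limited lists, all of C57BL6/J and all but 1 of them with LPS. The region at 1.64 kb was in the limited lists of 4 of 4 C57BL6/J LPSx1 libraries, 1 of 3 LPSx2 libraries and 0 of 12 BTBR libraries. In the whole lists the regions at 97.4, 46.8, 43.8 and 1.64 kb were also in 3, 4, 3 and 2 BTBR libraries. The region at 3.53 kb was shared, in 8 C57BL6/J and 5 BTBR libraries. The region at 22.9 kb was in 21 of 22 limited lists, missing only from the media library of C57BL6/J animal 1. Its median place was the top 60.5% in media, the top 21.9% with LPSx1 and the top 22.2% with LPSx2, in both strains together.

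Upstream of Iqgap2 the strains did not separate. The GC-rich promoter region (77.1% GC, chr13:95891883-95892420) was in 10 limited lists, 5 of each strain, and stood at the top 47.9% or lower. A region 65.4 kb upstream, inside Sv2c, which encodes a synaptic vesicle glycoprotein, was in 6 of 7 media lists and 1 of 15 LPS lists. It was lost in 5 of 7 animals with LPSx1 and in 6 of 7 with LPSx2 and gained in none, the rule for a lost region, which 1.2% and 1.41% of all regions met. No other member region was called lost and 0 of 28 were called gained in 5 or more animals, where 1.89% and 2.15% of all regions were gained. Between LPSx2 and LPSx1 0 of 28 were called, beside 0.0317% gained and 0.0272% lost over all regions. In the whole lists that region was present in 8 LPS libraries and the loss was not called, while 1 Iqgap2 and 1 Iqgap3 region were called gained with LPSx2. With the stronger 50% of each list the loss was not called either, and 1 Iqgap2 region was called gained with LPSx2. The regions 50.1, 63.6 and 81.7 kb upstream were in 3, 1 and 2 limited lists.

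Assignment to the nearest start site divides this locus among genes. F2rl2, a protease-activated receptor gene, starts inside Iqgap2, and F2r, another of that family, lies beyond its 3′ end, so the far end of the Iqgap2 body counts to them. F2rl2 held 0 to 2 peaks per limited list, F2r 0 in all 22 and Sv2c 0 or 1, and none of them reached the mean of 0.5 peaks needed for testing. When peaks in the gene body and up to 5 kb upstream were counted instead, Iqgap2 held 4 to 10 in the C57BL6/J LPS libraries and 1 to 3 in the BTBR LPS libraries. The strain difference was then -4.09 (limma adjusted p = 0.000537).

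Measures of library make-up overlapped between the strains under LPS when lanes were pooled. The share of limited-list peaks within 1 kb of a start site was 33.7% to 50.7% (median 38.7%) in C57BL6/J LPS libraries and 35.8% to 52.7% (median 44.2%) in BTBR LPS libraries. In lanes 1, 2, 3 and 4 it was 41.7%, 35.8%, 51.2% and 52.7% in BTBR LPSx1 libraries. The C57BL6/J LPSx1 libraries of these lanes had 38.7%, 34.8%, 44.1% and 50.7%. With LPSx2 in lanes 1, 2 and 4 it was 42.1%, 37% and 46.4% in BTBR and 36.1%, 33.7% and 46.4% in C57BL6/J. The BTBR share was thus the higher or the same in every such lane pair. Of the 10 macrophage markers, 4 to 10 (median 5) had a limited-list peak in C57BL6/J LPS libraries and 2 to 10 (median 6.5) in BTBR LPS libraries. By lane, 1 to 4, there were 9, 9, 5 and 2 in BTBR LPSx1 libraries and 7, 8, 5 and 4 in C57BL6/J. With LPSx2 in lanes 1, 2 and 4 there were 8, 10 and 3 in BTBR and 5, 10 and 4 in C57BL6/J. Whole lists held 5, 3, 2 and 3 with LPS in BTBR animals 5 and 8. C57BL6/J animals 6 and 7 held 7, 9 and 9 there, and all LPS libraries of lanes 1 and 2 held 10. The labels also give the additional PCR cycles of each library. These were 7, 8, 12 and 12 for BTBR LPSx1 in lanes 1, 2, 3 and 4, and 6, 6, 10 and 12 for C57BL6/J. With LPSx2 in lanes 1, 2 and 4 they were 8, 7 and 13 for BTBR and 6, 6 and 12 for C57BL6/J. Media libraries of lanes 1, 2 and 4 had 6, 8 and 13 in BTBR and 6, 7 and 13 in C57BL6/J. The part of shares, markers and cycles in the Iqgap2 difference was not tested. Nor was the part of aligning the reads of both strains to 1 reference, mm10.

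Iqgap1 held a similar number of limited-list peaks in every group. The C57BL6/J libraries of animals 1, 4 and 7 held 3, 8 and 3 in media and 3, 6 and 3 with LPSx2, and those of animals 1, 4, 6 and 7 held 4, 7, 2 and 2 with LPSx1. BTBR animals 2, 3, 5 and 8 held 4, 7, 4 and 4 in media, 4, 7, 2 and 3 with LPSx1, and 5, 8, 3 and 3 with LPSx2. The high values were those of animals 3 and 4, which shared the lane with the longest limited lists (22037 peaks). All groups overlapped, and group means of 3.75 to 4.75 peaks differed by less than the SDs of 1.5 to 2.89.

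The Iqgap1 differences were -0.57 ± 0.337 for LPSx1 minus media (limma adjusted p = 0.351), -0.33 ± 0.347 for LPSx2 minus media (adjusted p = 0.591) and 0.24 ± 0.337 for LPSx2 minus LPSx1 (adjusted p = 1). BTBR minus C57BL6/J was 0.71 ± 0.282 (95% interval 0.10 to 1.31, adjusted p = 0.302). The response of BTBR minus that of C57BL6/J was -0.35 ± 0.675 for LPSx1 (adjusted p = 0.999) and 0.67 ± 0.694 for LPSx2 (adjusted p = 0.899). None passed the threshold.

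One Iqgap1 region was open in every library. The region over the first exon of transcript Iqgap1-201, at chr7:80803222-80803590 with 72.6% GC in its peak, was in 22 of 22 limited lists, as were 6.8% of all regions, and stood between the top 6.04% and the top 95.6%. Next most frequent were a region in intron 2 of Iqgap1-201, 23.9 kb past its start site, in 18 limited lists, and the region 4.62 kb upstream of the outermost start site, in 17. Of the 12 regions, 7 were found in both strains, 3 in C57BL6/J only and 2 in BTBR only, each of those 5 in at most 2 libraries. The share of such regions over all genes was not computed.

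The region 4.62 kb upstream (chr7:80830404-80830788) stood higher in media lists than in LPS lists. It was in 7 of 7 media limited lists, between the top 8.63% and the top 36.8% (median 17.2%). With LPSx1 it was in 5 of 8, between the top 37.4% and the top 88.6%, and with LPSx2 in 5 of 7, between the top 47.7% and the top 94.4%. In each of the 7 animals with a media library it was nearer the top in media than in either LPS list, among equally long lists. Of all regions 0.829% were in every media list and had this order in every animal, and 2 of the 28 member regions did, the other being the Iqgap1 intron 2 region. The upstream region was in all 22 whole lists, and its loss from the limited list in 3 animals with LPSx1 and in 2 with LPSx2 fell short of the 5 needed for a call. With the stronger 50% of each list, 1 Iqgap1 region was called lost with LPSx1 and 2 with LPSx2. This pattern was singled out after its values had been seen. Its sequence, printed above, holds an AP-1 match followed directly by an NF-kB match.

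**Figure D4:**
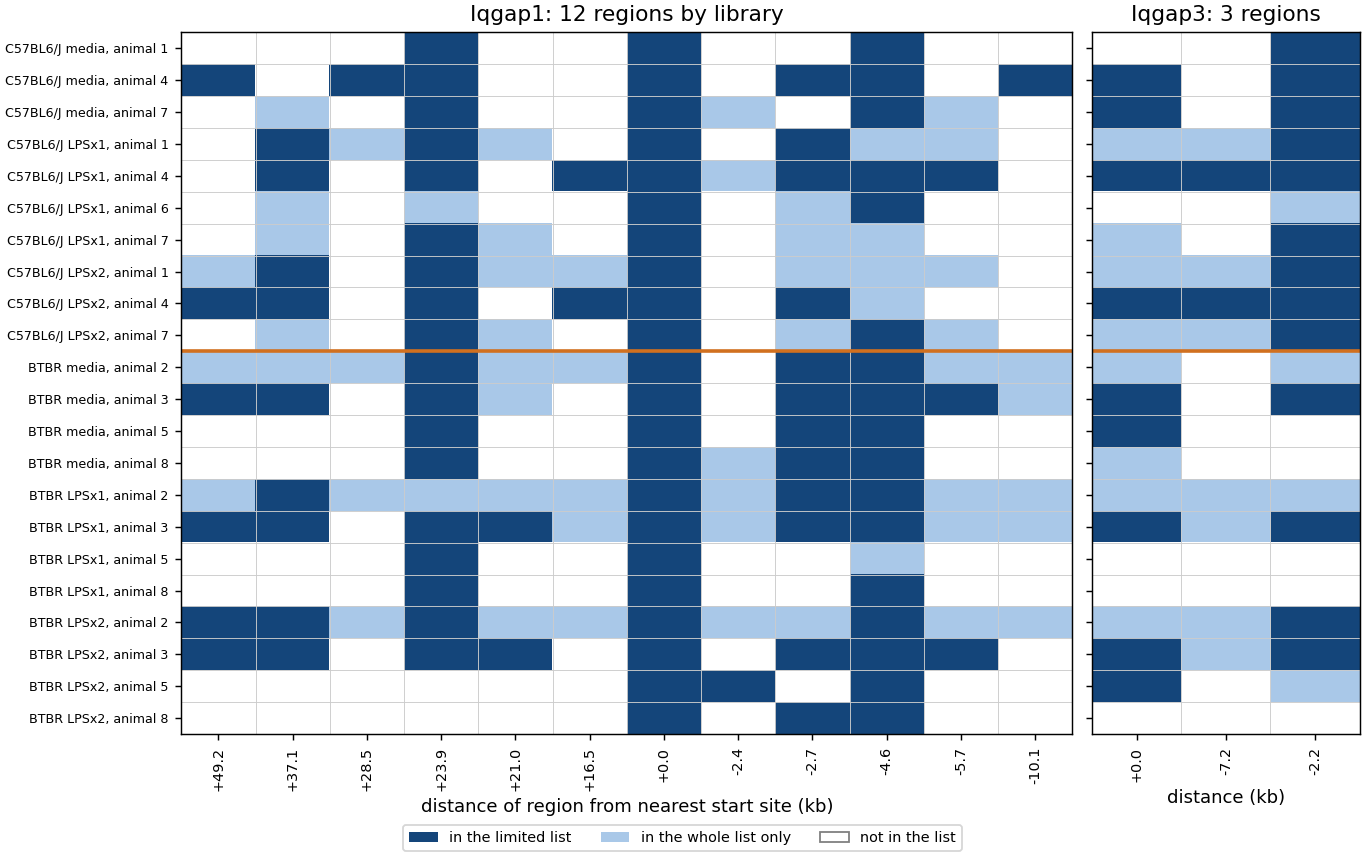
Detection of the 12 Iqgap1 regions (left) and 3 Iqgap3 regions (right) in the 22 libraries, with the distance to the nearest start site in kb; dark cells are in the limited list, light cells in the whole list only, and the orange line parts C57BL6/J from BTBR. The promoter column of Iqgap1 (+0.0) is dark in all 22 libraries.

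The region in intron 4 of Iqgap1-201, 37.1 kb past its start site, ran the other way. It was in the limited list of 1 of 7 media libraries, 4 of 8 LPSx1 libraries and 4 of 7 LPSx2 libraries, the LPS libraries being those of animals 1, 2, 3 and 4. It was gained in 3 animals with LPSx1 and in 3 with LPSx2 and lost in none, which is short of a call. In the whole lists it was in 11 of 15 LPS libraries and 3 of 7 media libraries. The region 2.66 kb upstream was in 12 limited lists, 5 of 7 in media and 7 of 15 with LPS.

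Iqgap3 held the fewest limited-list peaks and 3 regions. C57BL6/J animals 1, 4 and 7 held 1, 2 and 2 in media and 1, 3 and 1 with LPSx2, and animals 1, 4, 6 and 7 held 1, 3, 0 and 1 with LPSx1. BTBR animals 2, 3, 5 and 8 held 0, 2, 1 and 0 in media, 0, 2, 0 and 0 with LPSx1 and 1, 2, 1 and 0 with LPSx2. The groups overlapped in every treatment. BTBR was lower in 7 of 10 matched pairs and higher in 0, and the difference of -0.70 ± 0.238 peaks (95% interval -1.21 to -0.18) did not pass (limma adjusted p = 0.211). With overlapping peaks kept apart it was -1.22 and passed (limma adjusted p = 0.0369). LPSx1 minus media was -0.27 ± 0.285 (adjusted p = 0.626), LPSx2 minus media 0.12 ± 0.293 (adjusted p = 0.86) and LPSx2 minus LPSx1 0.40 ± 0.285 (adjusted p = 0.984). The response of BTBR minus that of C57BL6/J was 0.04 ± 0.569 for LPSx1 (adjusted p = 1) and 0.25 ± 0.585 for LPSx2 (adjusted p = 1).

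The Iqgap3 promoter region, over exon 1 at chr3:88081844-88082134, was in 9 of 22 limited lists and no higher than the top 57.3% of any. The intron 19 region (chr3:88102759-88103034) was in 13 limited lists, 9 of 10 C57BL6/J libraries and 4 of 12 BTBR libraries. It stood between the top 9.77% and the top 97.4%. In the whole lists this region was in 10 C57BL6/J and 7 BTBR libraries. The intron 13 region was in 2 limited lists, the LPSx1 and LPSx2 lists of C57BL6/J animal 4. In the whole lists it was in 9 libraries, all with LPS, 5 of C57BL6/J and 4 of BTBR.

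Motif matches were spread over the family. TGACTCA, the AP-1 motif, was in 9 of the 28 member regions and in 15.9% of all 44159 regions (21.3% of the 30432 regions not near a start site). The C/EBP motif was in 7 of 28 and in 12.6% of all regions, PU.1 in 2 and in 8.8%, and NF-kB in 1 and in 4.12%. Among the 8 intronic Iqgap2 regions, 2 held AP-1, 2 C/EBP and 0 PU.1 or NF-kB. The 42.4 kb region held none of these, and the 42.0 kb region held 2 C/EBP matches near the end of its peak. These are matches of letters in 201 bp of the mm10 reference and describe neither binding nor its absence. No BTBR sequence was read.

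Of 43 IQGAP binding partners and pathway genes, 39 were tested. With LPSx1, 1 was called higher (3.31% of all genes were) and 1 lower (2.28%), and 37 did not pass. Pik3r1, a regulatory subunit of phosphoinositide 3-kinase, had 3.71 ± 1.25 peaks in media (SD, n = 7) and 6.12 ± 2.75 with LPSx1 (n = 8), and rose by 2.43 ± 0.624 (limma adjusted p = 0.0382). With LPSx2, 1 of 39 was called lower, as were 2.8% of all genes. It was Pip5k1a, a kinase that makes phosphatidylinositol bisphosphate, which had 1 ± 0 peaks in media and 0.143 ± 0.378 with LPSx2 (n = 7 each) and fell by 0.88 ± 0.177 (adjusted p = 0.0117).

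In BTBR minus C57BL6/J, 0 of the 39 partners passed, where 1.25% of all genes did, and their median difference was 0.04 beside 0.00 over all genes. Their median was -0.16 for LPSx1 minus media and -0.42 for LPSx2 minus media, beside 0.00 over all genes in both. Cdc42, Rac1 and the calmodulin genes are on that list. Of 10 other genes with a Ras GTPase-activating domain 6 were tested, and of 12 proliferation and cytokinesis genes 7, and 0 passed in any comparison. Of all genes 5.58%, 6.22% and 1.25% were called for LPSx1, LPSx2 and strain, so a count of 0 among 6 or 7 genes is near the share over all genes. The medians of the latter lists, of 6 and 7 tested genes, stayed between -0.15 and 0.41 peaks over the comparisons.

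The tested genes next to the members did not pass in the strain comparison. Crtc3, a CREB coactivator gene beyond the 3′ end of Iqgap1, had a difference of 0.51 ± 0.445 (limma adjusted p = 0.7), and Mef2d, a transcription factor gene beside Iqgap3, 0.18 ± 0.55 (adjusted p = 0.972). Zscan2, a zinc finger gene upstream of Iqgap1, held 0 or 1 peak in every limited list (difference 0.24 ± 0.144, adjusted p = 0.54), and Ttc24, beside Iqgap3, held 0.

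The genes whose peak numbers ran most like Iqgap2 over the 22 libraries, each lane centred on its mean, were Pla2g4a (Pearson r = 0.92), which encodes a cytosolic phospholipase A2, Rnf150 (0.90) and Inpp4b (0.90), an inositol polyphosphate phosphatase gene, out of 8616 genes compared. For Iqgap1 they were Slc16a3 (0.77), a lactate transporter gene, 2310011J03Rik (0.76) and Inka1 (0.75). For Iqgap3 they were Vsig10l (0.76), Gpr84 (0.73) and Myl12b (0.71), a myosin regulatory light chain gene. These values are descriptions over libraries that share animals, and the highest of 8616 values is high by choice.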

How the data were processed

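The deposited files were 24 peak lists, 1 per library, each giving 201 bp peaks with a score from 7 to 745.5. Per the labels, the authors aligned reads of both strains to mm10, kept fragments under 147 bp and called peaks for each library with HOMER. Picard 2.18.4, SAMtools 1.8, bedtools and Trimmomatic 0.38 are further tools in the submitters' processing notes. The aligner was not given in the sources used here. The lists held no read counts, so depth per peak is unknown and list length, 11349 to 127242 peaks after collapsing, stands in for it. In 7 lists 66.7% to 87.4% of the deposited peaks overlapped another, and in the other 17 at most 0.213% did. The deposited score served to order the peaks of each list and for nothing else.

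Overlapping peaks were collapsed to the strongest, lists were limited to the shortest kept list of the lane (11349, 22037, 16045 and 13957 peaks), and each peak went to the nearest start site of a protein-coding transcript (GENCODE M21) within 100 kb. Peaks per gene were fitted with limma 3.58.1 (trend, robust) in R 4.3.3 over 6 groups of strain by treatment with lane as a term, for the 9137 genes that averaged 0.5 or more peaks per library, with Benjamini-Hochberg adjustment over all of them and a threshold of 0.05. The strain comparison kept the animal as a random effect (consensus correlation -0.00447). With so small a correlation the fit weighted the libraries of an animal almost as independent. The SE of the strain difference averaged over treatments therefore rests on libraries rather than on animals. Differences are in peaks per gene. The labels give each biological replicate, taken here as 1 animal, a number shared by its 3 treatments, so the numbers pair the cultures, and deviations of the same animal's libraries from the group means correlated at 0.201 to 0.797 in 21 pairs. The same fit was run on simulated independent counts in which chosen genes were changed in LPSx1 libraries only. The simulation held no strain or animal effect, so it does not bear on the strain comparisons.

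Regions are peaks of the kept lists merged at an overlap of 1 bp. A region was called gained or lost when at least 5 animals changed 1 way and none the other, and strain-restricted when each of the 4 animals of 1 strain, but no animal of the other, had it in over 50% of its libraries. Introns and exons are those of transcripts Iqgap1-201, Iqgap2-201 and Iqgap3-201. Named genes were the 3 members, their neighbours, the 3 genes most correlated with each member, and members of 3 gene lists that passed. Members and lists were chosen with earlier results of these data known. One gene of these lists that passed is not reported here.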

Additional observations from a re-analysis of the deposited data

Results flagged for a closer look

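Among 11 sets of 4 libraries of 1 strain and treatment with differing values, 2 had a library far from the others. In both sets the other values were tied whole numbers. The rate of about 1 in 20 such cases by chance need not hold for tied counts, so no excess is read from them. Both outlying libraries were of BTBR animal 3. Its media library held 7 Iqgap1 peaks where the other BTBR media libraries held 4 each, and its LPSx1 library held 2 Iqgap3 peaks where the others held 0. Animal 3 shared the lane with the longest limited lists, 22037 peaks. The part of list length in these values was not tested.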

How the results depend on the processing

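The main limits are that peak lists carry no counts, that list lengths differed widely, and that 3 or 4 animals stood behind each group. The number of genes called, 510 for LPSx1 minus media, 568 for LPSx2 minus media, 0 for LPSx2 minus LPSx1, 114 for BTBR minus C57BL6/J and 3 and 1 for the strain difference of the LPSx1 and LPSx2 responses, moved with the settings. With lists limited within an animal, with whole lists, and with whole lists and no library left out, each of these counts was 0. With the stronger 50% of each list they were 225, 313, 1 and 55 for the first 4 comparisons. Without a lane term the LPSx1, LPSx2 and strain counts were 112, 150 and 15, and with every gene tested 833, 928 and 216. Without the 7 lists with mostly overlapping peaks the LPSx1, LPSx2 and LPSx2 minus LPSx1 counts were 94, 92 and 34, and the response differences 52 and 76. With overlapping peaks kept apart the LPSx2 count was 1282, the strain count 246 and both response differences 0. A 25 kb limit gave 57 strain calls, gene bodies 1 call for LPSx2 minus LPSx1, and 1 list length in all lanes 1 such call and 4 for the LPSx2 response difference. On the log2 scale the LPSx1 response difference had 1 call. Without each animal in turn the counts were 199 to 400, 199 to 593, 0 to 2, 61 to 128, 1 to 7 and 1 to 9.

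The Iqgap2 strain difference of -3.58 stayed past the threshold without each animal in turn (-4.21 to -3.03, limma adjusted p = 0.00018 to 0.0205), and with gene bodies, the log2 scale, all transcript starts, overlapping peaks kept apart, every gene tested and 1 list length in all lanes. It was lost with lists limited within an animal (-1.17), the stronger 50% (-1.25), 25 kb (-0.92), no lane term (-3.54) and without lists of overlapping peaks (-2.76), and reversed with whole lists (1.28) and with no library left out (2.42); the cause was not tested.

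The replicate block, with animals as fixed effects, changed no call of a member. It gave 353 and 476 calls for the LPSx1 and LPSx2 responses and 2 for the LPSx2 response difference, and Iqgap2 had an LPSx2 minus media difference of 1.46 (limma adjusted p = 0.0551). Under it the LPSx1 response difference of Iqgap3 turned to -0.25. Without the block the Iqgap2 strain difference was -3.58.

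Among the other member differences 2 gained a call, Iqgap2 for LPSx1 minus media with the stronger 50% (1.69, limma adjusted p = 0.0491) and Iqgap3 for strain with overlapping peaks kept apart (-1.22, limma adjusted p = 0.0369). Other uncalled member differences also changed sign, with the cause not tested. With whole lists Iqgap1 was 1.92 for LPSx1 minus media, 1.25 for LPSx2 minus media, -0.67 for LPSx2 minus LPSx1 and -1.50 for the LPSx2 response difference, Iqgap2 was -1.40 for LPSx2 minus LPSx1, and Iqgap3 was 0.47 for LPSx1 minus media and -0.94 and -0.58 for the response differences. With no library left out the same 8 values were 1.38, 1.00, -0.38, -1, -2, 0.50, -1 and -0.25, and Iqgap3 was 0.08 for strain. With lists limited within an animal Iqgap1 was -1.06 for LPSx2 minus LPSx1 and -1.75 for the LPSx2 response difference, Iqgap2 was -0.58 for LPSx2 minus LPSx1, and Iqgap3 was 0.05 for LPSx1 minus media and -0.10 and -0.08 for the response differences. With the stronger 50% Iqgap1 was -0.30 for LPSx2 minus LPSx1 and 0.15 and -0.25 for the response differences, and Iqgap2 was -0.56 for LPSx2 minus LPSx1. With overlapping peaks kept apart Iqgap1 was 0.31, 0.12 and -0.19 for the treatment differences and 0.38 for the LPSx1 response difference, which was 0.33 with gene bodies, 0.17 without a lane term and 0.10 with all transcript starts. With gene bodies Iqgap1 was 0.08 for LPSx2 minus media. At 25 kb Iqgap2 was -0.08 for LPSx2 minus media and -0.35 for LPSx2 minus LPSx1, and Iqgap1 was -0.02 for the latter. With 1 list length in all lanes the latter was -0.42 for Iqgap1 and -0.17 for Iqgap2. Without lists of overlapping peaks Iqgap3 was -0.33 for LPSx2 minus media and Iqgap1 -0.33 for the LPSx2 response difference. All transcript starts and 1 list length were chosen after seeing the data. Without each animal in turn Iqgap1 ran from -0.04 to 0.40 for LPSx2 minus LPSx1 and from -0.71 to 0.29 for the LPSx1 response difference, and Iqgap3 from -0.12 to 0.38 for LPSx2 minus media and from -0.38 to 0.62 and -0.25 to 0.75 for the response differences.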
